A study of Rattus norvegicus with 8 samples.

Results

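The genes described here are the VEGF ligands Vegfa and Vegfb, their receptors Kdr and Flt1, and the endothelial genes Pecam1, Cdh5, Tek, Tie1, Vwf and Eng. They were taken as every probe set of the deposited table whose only gene symbol in the platform annotation is one of these 10. That gave 13 probe sets of 31099, for 9 of the 10 genes among 14217 genes named in this way. No probe set carried Cdh5 as its only symbol, and Cdh5 was not analysed here. RNA of each rat was hybridised to its own Affymetrix expression array and came from a hind limb muscle made mostly of fast fibres, the tibialis anterior. All rats were adult Sprague-Dawley animals, and each group held 3 males and 1 female. The hyperthyroid group of 4 rats had received intraperitoneal T3 (triiodothyronine, the active thyroid hormone) over 6 weeks, with a dose of 25 µg for each 100 g of weight at 2-day intervals, and was killed 24 hours after the last dose. The control group was 4 untreated rats, with no sham injection mentioned in the labels, so that injection and hormone cannot be told apart.

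Vascular endothelial growth factor (VEGF) is made in skeletal muscle largely by the fibres and acts on the endothelial cells of the capillaries beside them. Kdr carries most of its growth signal, while Flt1 binds VEGF more tightly and signals weakly, so that it acts in part as a trap. The angiopoietin receptor Tek and its partner Tie1 keep vessels quiescent and stable, and Pecam1, Vwf and Eng are proteins by which endothelium is commonly recognised. Thyroid hormone excess is known to promote vessel growth in the heart, and the comparison asks what these transcripts showed in a limb muscle.

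None of the 12 probe sets that passed a filter on low values differed between the groups in limma, a linear model fitted across all 18625 probe sets kept, at a Benjamini-Hochberg adjusted p of 0.05. The share called over all probe sets was 0.0322%, or 6 probe sets, each with its higher mean in hyperthyroid rats. Among the 12, only 1 of Flt1 had an unadjusted p under 0.05, against 9.68% of all probe sets, and 1 had groups that did not overlap, against 6.15%. The median log2 fold change of the 12 was -0.17 (7 below 0 and 5 above, where 50.8% of all kept probe sets were below 0), and that of all kept probe sets was -0.0077. The smallest adjusted p among the 12 was 0.491. Each value was an average over whole muscle, in which fewer endothelial cells and less RNA per cell cannot be told apart.

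**Figure D1:**
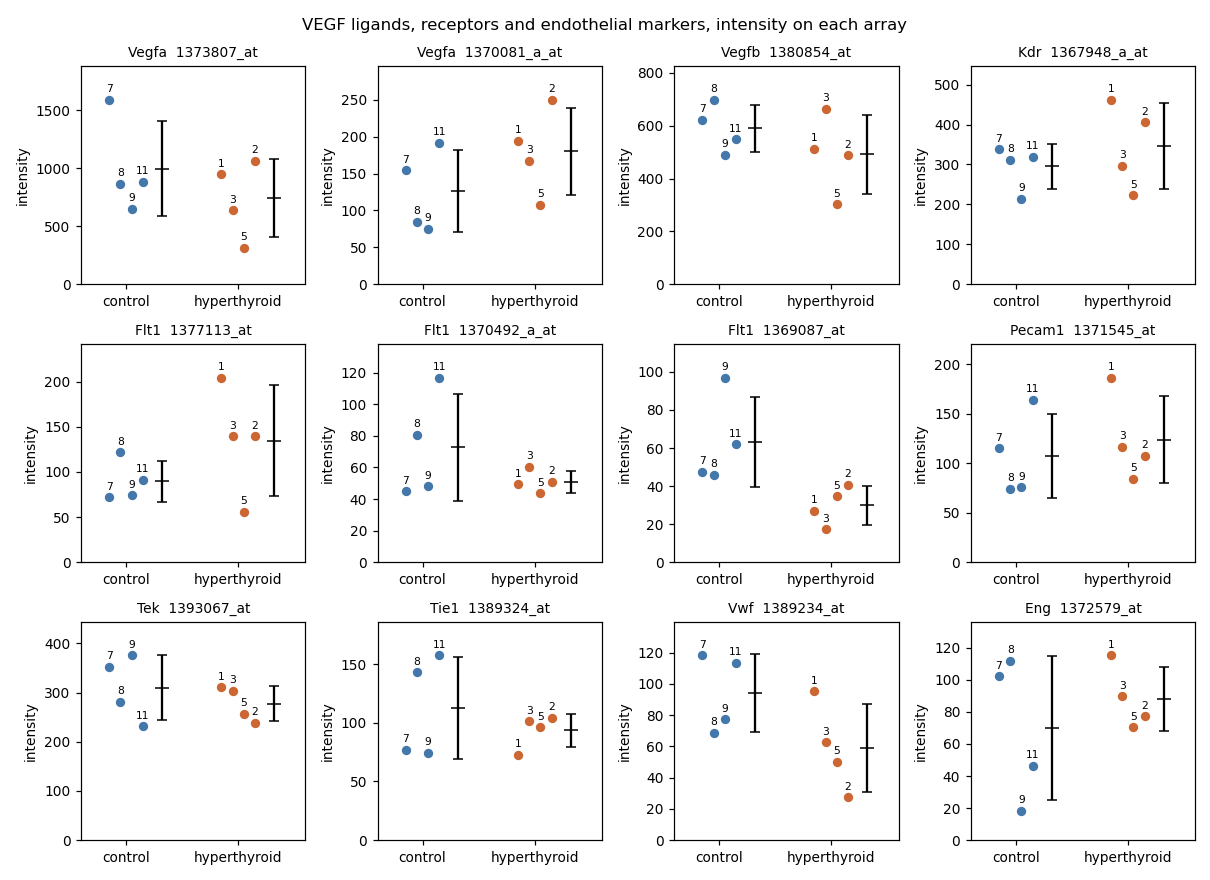
Intensity (linear scale, each array scaled to the same mean) of the 12 probe sets on each of 4 control (blue) and 4 hyperthyroid (orange) arrays, with replicate numbers above the points and the mean with its SD as a bar. The groups overlap in every panel but Flt1 1369087_at, where the hyperthyroid arrays lie between 17.2 and 40.7 and the control arrays between 45.8 and 97.1.

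Vegfa, the main ligand for capillary growth, was read by 2 probe sets. On 1373807_at the intensities were 949, 639, 316 and 1065 on hyperthyroid replicates 1, 3, 5 and 2, while control replicates 7, 8, 9 and 11 gave 1593, 866, 652 and 882. The groups overlapped, with control replicate 7 the highest array and hyperthyroid replicate 5 the lowest. With means of 742 ± 336 and 999 ± 410 (SD, n = 4 each), the difference on the log2 scale was -0.49 ± 0.34 (standard error, limma adjusted p = 0.668). Without hyperthyroid replicate 5 it was -0.13 and without control replicate 7 it was -0.24.

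The other Vegfa probe set, 1370081_a_at, lay the other way. Its suffix marks, in the maker's naming, a probe set that reads several transcripts of 1 gene. Hyperthyroid replicates 1, 3, 5 and 2 gave 195, 168, 108 and 250.2, and control replicates 7, 8, 9 and 11 gave 155, 84.3, 74.9 and 191. Control replicates 8 and 9 were the lowest arrays, and control replicate 11 lay within the hyperthyroid range. Its log2 fold change was 0.54 ± 0.33 (limma adjusted p = 0.618), and it was 0.34 without control replicate 9. Averaged over both probe sets, Vegfa differed by 0.029 on the log2 scale.

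The signal of 1 probe set over another has no meaning as a level, since probes respond unequally, but its change between groups hardly depends on how arrays are scaled. On the log2 scale, 1370081_a_at minus 1373807_at was -2.27, -1.91, -1.52 and -2.08 on hyperthyroid replicates 1, 3, 5 and 2, while control replicates 7, 8, 9 and 11 had -3.34, -3.31, -3.07 and -2.19. Control replicate 11 lay within the hyperthyroid range and the other 3 controls below it. The means were -1.94 ± 0.32 and -2.98 ± 0.54 (SD, n = 4 each), 1.03 apart. This contrast and 3 like it for Flt1 were chosen after the values were seen, each taken as the probe set of higher fold change minus the other, so that their sign carries no information. In an exact two-sided permutation test over the 70 assignments of arrays, whose smallest possible p is 0.0286, it had p = 0.0571 (0.114 adjusted over the 4 contrasts). Which transcript ends the 2 probe sets read was not examined.

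Vegfb, a ligand of Flt1 that does not bind Kdr and is linked to fatty acid use in heart and muscle, had 1 probe set. Its intensities were 512, 663, 303 and 488 on hyperthyroid replicates 1, 3, 5 and 2, while control replicates 7, 8, 9 and 11 gave 622, 699, 491 and 549. Hyperthyroid replicate 5 was the lowest array, and the others overlapped. Vegfb had a log2 fold change of -0.30 ± 0.22 (limma adjusted p = 0.677), with a 95% interval from 0.586-fold to 1.12-fold. Without hyperthyroid replicate 5 it was -0.091, and without hyperthyroid replicate 3 it was -0.46.

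Kdr, the receptor that drives endothelial proliferation, gave 462, 297, 223 and 406 on hyperthyroid replicates 1, 3, 5 and 2 with probe set 1367948_a_at. Control replicates 7, 8, 9 and 11 gave 338, 311, 213 and 319. Control replicate 9 and hyperthyroid replicate 5 were the lowest, and the control arrays lay within the hyperthyroid range but for replicate 9. The difference was 0.20 ± 0.24 on the log2 scale (limma adjusted p = 0.822), with a 95% interval from 0.803-fold to 1.64-fold. Without hyperthyroid replicate 1 it was 0.041, without control replicate 9 it was 0.049, and without hyperthyroid replicate 5 it was 0.39. A further Kdr probe set, 1397868_at, lay between 2.05 and 37.4 with a mean level under the filter (about 22.5), and was the only 1 of the 13 left out of the main test. Fitted without the filter it gave -0.90 ± 0.73 (limma adjusted p = 0.782).

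Flt1 was read by 3 probe sets, with log2 fold changes on both sides of 0. On 1369087_at, hyperthyroid replicates 1, 3, 5 and 2 gave 27.1, 17.2, 34.7 and 40.7, and control replicates 7, 8, 9 and 11 gave 47.6, 45.8, 97.1 and 62.0. All 4 hyperthyroid arrays were below all 4 control arrays, as for 3.16% of all kept probe sets. The means were 29.9 ± 10.1 and 63.1 ± 23.8 (SD, n = 4 each), which gave -0.99 ± 0.44 on the log2 scale with unadjusted p = 0.0393 and a limma adjusted p of 0.491. The nearest arrays of the groups were at 45.8 and 40.7, and hyperthyroid replicate 3 was below the level of the filter on the mean.

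On Flt1 probe set 1377113_at the hyperthyroid replicates 1, 3, 5 and 2 gave 204, 139, 55.8 and 139, and control replicates 7, 8, 9 and 11 gave 71.8, 122, 73.9 and 90.9. Here 3 of 4 hyperthyroid arrays were above every control array and replicate 5 was below all of them. The difference on the log2 scale was 0.47 ± 0.36 (limma adjusted p = 0.695), and 0.83 without hyperthyroid replicate 5 but 0.23 without hyperthyroid replicate 1. On 1370492_a_at the hyperthyroid arrays lay between 43.7 and 60.4 and the controls between 44.8 and 117, with control replicate 11 the highest. Its log2 fold change was -0.39 ± 0.37 (limma adjusted p = 0.763), and -0.13 without that array.

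Within arrays, the log2 value of 1377113_at minus that of 1369087_at was 1.97 ± 1.03 in hyperthyroid and 0.51 ± 0.70 in control rats (SD, n = 4 each). The difference of 1.46 had an exact permutation p of 0.0571 (0.114 adjusted over the 4 contrasts). Hyperthyroid replicates 1, 3 and 2 lay above every control array, and replicate 5 lay within the control range. The other 2 contrasts of Flt1 gave 0.86 (exact p = 0.114) and 0.60 (exact p = 0.343). A soluble form of Flt1 that lacks the membrane anchor is made by alternative processing of its transcript, and which forms the 3 probe sets read was not examined.

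**Figure D2:**
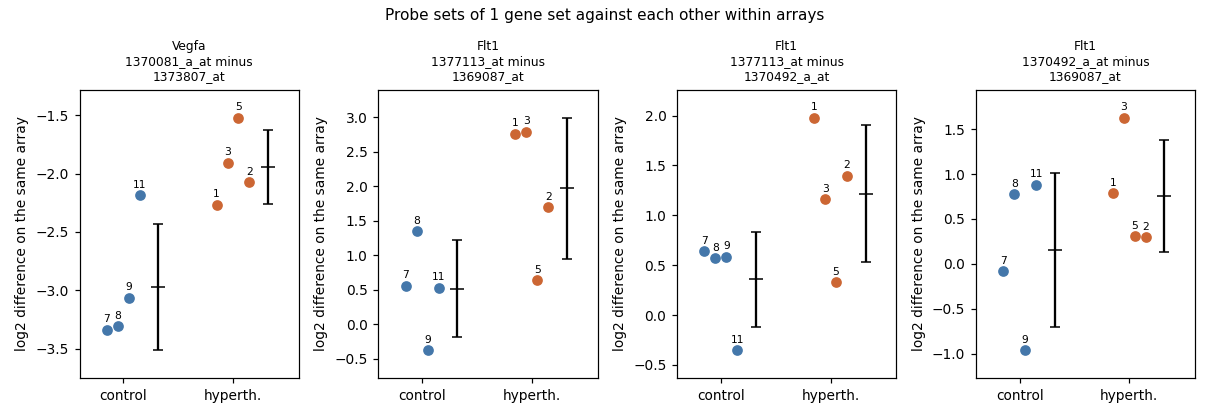
Difference in log2 level between 2 probe sets of 1 gene on the same array, for Vegfa (1 pair) and Flt1 (3 pairs), on control (blue) and hyperthyroid (orange) arrays with replicate numbers and the mean with its SD. For Vegfa, control replicate 11 at -2.19 is the only control array within the hyperthyroid range of -2.27 to -1.52.

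The promoter of Flt1 is shown because Flt1 held the only unadjusted p under 0.05 among these genes and because ETS-family factors, which bind around a GGAA core, are known drivers of endothelial transcription. The stretch is the 250 bases before the start of Flt1 in RefSeq (GRCr8, chr12:12333180-12333429, plus strand), with each match to AGGAAG on either strand in capitals, starting 172 and 96 bases before the start. The promoters of Tie1 (chr5:137304982-137305231, minus strand) and Eng (chr3:36332029-36332278, plus strand) follow as the other ones with a match, which lies 61 bases before the start in Tie1 and 128 and 82 before it in Eng.
Flt1: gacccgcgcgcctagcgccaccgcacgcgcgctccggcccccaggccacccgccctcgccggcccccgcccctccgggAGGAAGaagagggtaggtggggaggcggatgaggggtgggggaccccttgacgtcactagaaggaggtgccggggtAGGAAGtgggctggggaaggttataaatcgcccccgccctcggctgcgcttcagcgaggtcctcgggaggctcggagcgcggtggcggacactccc
Tie1: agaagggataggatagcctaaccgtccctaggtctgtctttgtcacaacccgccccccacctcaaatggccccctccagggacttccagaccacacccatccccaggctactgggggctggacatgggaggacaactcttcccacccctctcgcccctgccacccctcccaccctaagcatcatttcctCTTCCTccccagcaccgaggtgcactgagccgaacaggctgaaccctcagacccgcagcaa
Eng: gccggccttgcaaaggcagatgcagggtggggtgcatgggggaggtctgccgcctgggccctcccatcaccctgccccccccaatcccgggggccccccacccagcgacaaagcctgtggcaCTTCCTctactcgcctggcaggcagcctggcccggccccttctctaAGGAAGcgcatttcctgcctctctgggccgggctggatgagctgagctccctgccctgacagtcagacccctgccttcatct

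Promoters were matched for 6 of the 10 genes, with 7 windows of 300 bases because Vegfa has 2. AGGAAG, searched on both strands, was found in 3 of the 7 windows and in 34.5% of all 33469 promoters of that length. The core of the hypoxia response element, ACGTG, was found in 0 of 7 and in 19.3% of all, and the DR4 direct repeat known to bind thyroid hormone receptors, in its consensus letters, in 0 of 7 and in 2 of all 33469 promoters. The 7 windows were rich in G and C, at 57.3% to 73.7%, where the median over all promoters was 51.7%. These matches describe letters in these windows and say nothing of binding.

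Tek, the receptor of the angiopoietins, was the steadiest of the group between arrays. It gave 310.8, 304, 257 and 238 on hyperthyroid replicates 1, 3, 5 and 2, and control replicates 7, 8, 9 and 11 gave 353, 281, 376 and 231. All hyperthyroid arrays lay inside the control range. Tek had a log2 fold change of -0.14 ± 0.20 (limma adjusted p = 0.849), and the 95% interval ran from 0.675-fold to 1.22-fold. It was -0.043 without control replicate 9, -0.073 without control replicate 7 or hyperthyroid replicate 2, and -0.27 without control replicate 11.

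Tie1, the partner receptor that modulates Tek, gave 72.5, 101, 96.2 and 104 on hyperthyroid replicates 1, 3, 5 and 2. Control replicates 7 and 9 gave 76.8 and 74.3 and control replicates 8 and 11 gave 143 and 157, so the controls fell on both sides of most hyperthyroid arrays. On the log2 scale the difference was -0.20 ± 0.30 (limma adjusted p = 0.867). Leaving out 1 array at a time gave values from -0.36 (control replicate 9) to -0.014 (control replicate 11), with -0.059 without control replicate 8 and -0.084 without hyperthyroid replicate 1.

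Eng, a co-receptor for TGF-beta and BMP ligands on endothelium, gave 115, 89.8, 70.3 and 77.3 on hyperthyroid replicates 1, 3, 5 and 2, whereas control replicates 7, 8, 9 and 11 gave 102, 112, 18.5 and 46.2. Control replicate 9 was the lowest array by far. Eng had a log2 fold change of 0.58 ± 0.47 (limma adjusted p = 0.716), and 0.090 without that array. Without control replicate 8 it was 0.89.

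Pecam1, an adhesion protein of endothelial junctions that platelets and leukocytes also carry, gave 187, 117, 84.4 and 108 on hyperthyroid replicates 1, 3, 5 and 2, and control replicates 7, 8, 9 and 11 gave 115, 74.4, 75.7 and 164. The highest arrays were hyperthyroid replicate 1 and control replicate 11. These were also the arrays with the highest Xist signal of their groups, at 489.7 and 344, where no other array was above 49.97. The part of sex in these values was not tested. The log2 fold change of Pecam1 was 0.22 ± 0.32 (limma adjusted p = 0.859), and 0.23 ± 0.30 with both arrays left out. Without hyperthyroid replicate 1 alone it was 0.005, without control replicate 8 it was 0.072, without control replicate 9 it was 0.080, and it was 0.44 without control replicate 11 and 0.38 without hyperthyroid replicate 5.

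Vwf, the clotting protein that endothelial cells and platelets store, gave 95.1, 62.6, 50.3 and 27.3 on hyperthyroid replicates 1, 3, 5 and 2. Control replicates 7, 8, 9 and 11 gave 118, 68.7, 77.4 and 113. Hyperthyroid replicates 3, 5 and 2 were below every control array, and replicate 1 lay within the control range. The means of 58.8 ± 28.3 and 94.3 ± 24.9 (SD, n = 4 each) differed by -0.74 ± 0.38 on the log2 scale (unadjusted p = 0.0707, limma adjusted p = 0.557). Without hyperthyroid replicate 2 it was -0.44.

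**Figure D3:**
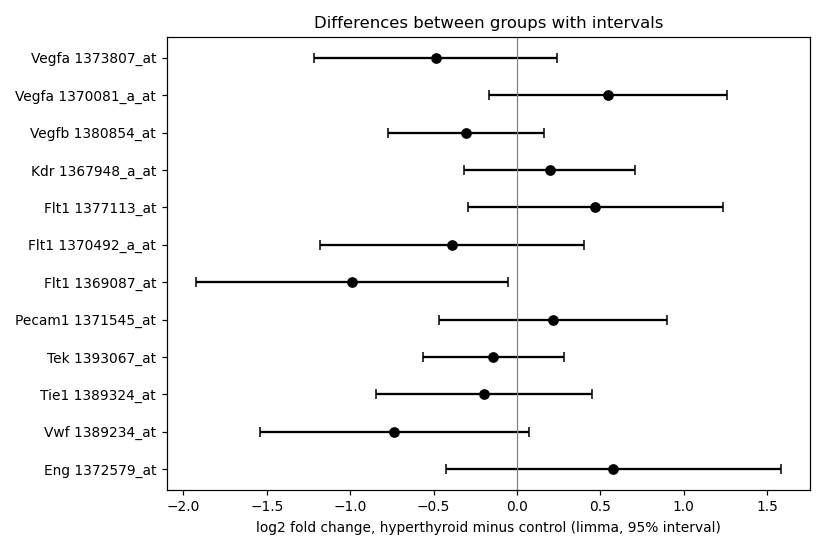
Log2 fold change of each of the 12 probe sets, hyperthyroid minus control, with its 95% interval from limma. The interval of Flt1 1369087_at, from -1.92 to -0.06, is the only 1 that leaves out 0, before any adjustment for the 18625 probe sets tested.

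The width of these intervals sets what could be seen. The standard error of the 12 probe sets had a median of 0.34 on the log2 scale, against 0.32 over all kept probe sets, and 8 of the 12 were above the latter. The narrowest intervals were those of Tek, Vegfb and Kdr, and the widest those of Eng and Flt1 1369087_at, from 0.744-fold to 2.99-fold for Eng and from 0.263-fold to 0.962-fold for Flt1. The least difference that passed the threshold anywhere on the arrays was 1.12 on the log2 scale.

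Arrays within each group differed. Averaged over the 12 probe sets, hyperthyroid replicate 5 deviated from the mean of the 8 arrays by -0.46 and control replicate 9 by -0.30 on the log2 scale. Control replicate 11 and hyperthyroid replicate 1 were the highest at 0.24 each. Hyperthyroid replicate 5 was the lowest array for 4 of the 12 probe sets and above the mean for 1. Control replicate 9 was the lowest for 3, namely Vegfa 1370081_a_at, Kdr and Eng, but the highest for Flt1 1369087_at and for Tek. The same arrays were low over 27 other endothelial genes, at -0.32 for hyperthyroid replicate 5 and -0.39 for control replicate 9.

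**Figure D4:**
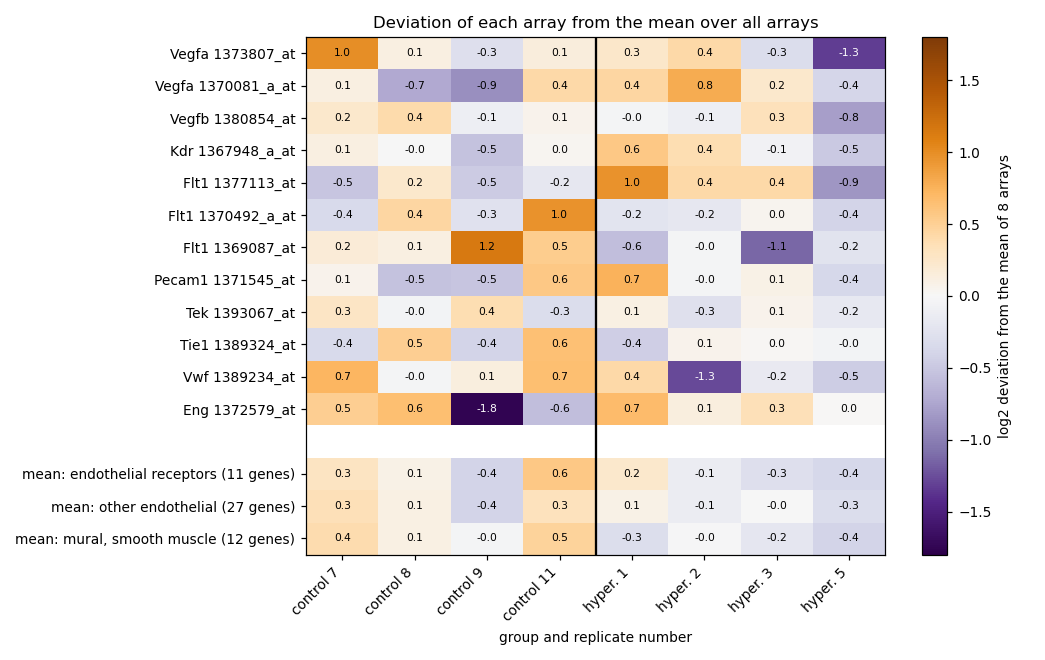
Deviation of each array from the mean of the 8 arrays in log2 units, for the 12 probe sets (upper rows) and for the means of 3 gene lists (lower rows), with controls left of the line and hyperthyroid arrays right. Low values gather on control replicate 9 and hyperthyroid replicate 5, while control replicate 9 is the highest array for Flt1 1369087_at, at 1.15, and for Tek, at 0.37.

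The genes whose levels followed Vegfa 1373807_at most closely over the 8 arrays, of 10191 other genes, were Abcc1, Uqcrc1, Ogdh and Got2. Pearson correlations were 0.989, 0.98, 0.979 and 0.962, as a description of arrays that share tissue and scaling. Rank (Spearman) correlations were 0.976, 0.905, 0.976 and 0.762. With so many genes searched over 8 arrays, the highest correlations are large in part by selection. Abcc1 is an export pump, Uqcrc1 a core protein of respiratory complex III, Ogdh a subunit of the 2-oxoglutarate dehydrogenase complex and Got2 the mitochondrial aspartate aminotransferase. None of the 4 was called between the groups, with log2 fold changes from -0.19 to -0.067. The genes closest to Pecam1 were Afg1l, Txn2, Eci2 and Irf2bp2, with Pearson correlations of 0.957, 0.949, 0.94 and 0.928. By rank these were 0.976, 0.976, 0.833 and 0.81. Txn2 is the mitochondrial thioredoxin and Eci2 an isomerase of fatty acid oxidation. They had log2 fold changes from 0.10 to 0.23, and none was called.

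Other genes of the pathway were counted from lists, each gene by its kept probe set of highest mean. No gene of these lists was called in limma, and the smallest adjusted p was 0.214. Over all 10200 genes the median log2 fold change was -3e-04, with 540 genes higher and 524 lower at an unadjusted p under 0.05. Centring the arrays on their medians or scaling them to the hybridization controls moved the median of all genes to 0.22 and 0.31. Counts above and below 0 shift with it in every list, so under those scalings the distance of a list's median from that of all genes is given. Centring moves every gene alike and cannot change this distance, and scaling to the hybridization controls changes it little by its nature. An unchanged distance is therefore no test of a list.

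Among 12 angiogenic ligands measured, 6 were above 0 on the log2 fold change scale and 6 were below. Their median was -0.09, and 2 higher and 1 lower had an unadjusted p under 0.05. The median had no stable sign, with 0.060 when hyperthyroid replicate 5 was left out, 0.050 and 0.043 for control replicates 8 and 7, and -0.22 for control replicate 9. Esm1, a proteoglycan secreted by sprouting endothelium, gave 42.5 to 103 on hyperthyroid and 112 to 195 on control arrays, which did not overlap (log2 fold change -1.02 ± 0.30, limma adjusted p = 0.307). Pgf, a VEGF relative that binds Flt1, gave 41.7, 58.9, 58.0 and 71.6 on hyperthyroid replicates 1, 3, 5 and 2, and control replicates 7, 8, 9 and 11 gave 38.9, 9.501, 32.9 and 9.47. These groups did not overlap either, by a margin of 41.7 to 38.9, and the log2 fold change was 1.42 ± 0.55 (limma adjusted p = 0.444). Control replicates 8 and 11 were below the level of the filter (about 22.5), which Pgf passed on its mean over all arrays. Angpt2, an angiopoietin that can oppose Tek signalling, gave 0.72 ± 0.33 (limma adjusted p = 0.506), with control replicates 7 and 11 the lowest arrays at 115 and 152.

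All 11 measured receptors and co-receptors of endothelium were below 0. Their median was -0.32, and none had an unadjusted p under 0.05. Ptprb, the phosphatase that restrains Tek, gave -0.41 ± 0.22, Ramp2, a partner of the adrenomedullin receptor, -0.45 ± 0.28, and Nrp2, a VEGF co-receptor, -0.57 ± 0.36 (limma adjusted p = 0.586, 0.618 and 0.628). With arrays centred or scaled to the hybridization controls, 6 of 11 were below 0, and the list's median lay -0.32 from that of all genes under each. Without both control replicates 7 and 11, the highest arrays for this list, its median was -0.067, with 7 of 11 below 0. Without hyperthyroid replicate 5 and control replicate 9, the lowest arrays, it was -0.45, with 10 of 11 below 0. Without the array of highest Xist in each group the median was -0.34, with 9 of 11 below 0. Leaving out 1 array at a time gave medians from -0.55 (control replicate 9, with all 11 below 0) to -0.16 (control replicate 11, with 7 of 11 below 0), with -0.19 without hyperthyroid replicate 3, -0.20 without control replicate 8 and -0.21 without hyperthyroid replicate 5.

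Of 27 other endothelial genes measured, 19 were below 0 and 8 above. The median was -0.24, and 3 had an unadjusted p under 0.05, all lower. Aqp1, a water channel of capillary endothelium, gave 1169, 681, 654 and 972 on hyperthyroid replicates 1, 3, 5 and 2, and control replicates 7, 8, 9 and 11 gave 1361, 1334, 1457 and 1697. The groups did not overlap, and the means of 869 ± 246 and 1462 ± 165 (SD, n = 4 each) gave a log2 fold change of -0.78 ± 0.19 (limma adjusted p = 0.214). Plvap, a protein of endothelial diaphragms, gave -0.68 ± 0.28 and Sox17, a transcription factor of arterial endothelium, gave -0.76 ± 0.32 (limma adjusted p = 0.479 and 0.481). With arrays centred, 14 of the 27 were below 0, and with hybridization controls 7 were, while the list's median lay -0.24 from that of all genes under each. Without control replicates 7 and 11 together, the highest arrays for this list, the median was -0.002. Without hyperthyroid replicate 5 and control replicate 9, the lowest arrays, it was -0.25, with 19 of 27 below 0. Without the array of highest Xist in each group the median was -0.21, with 22 of 27 below 0. Leaving out 1 array at a time gave -0.07 (hyperthyroid replicate 5) to -0.41 (control replicate 9, with 21 of 27 below 0), with -0.12 and -0.13 without control replicate 11 and control replicate 7.

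In the Notch pathway, by which neighbouring endothelial cells choose between sprouting and resting, 7 of 12 genes were below 0 and 5 above, with a median of -0.13. Leaving out 1 array at a time gave -0.28 (hyperthyroid replicate 1, with 11 genes kept) to -0.053 (control replicate 11). Nrarp, a Notch target that damps the pathway, gave -1.29 ± 0.47, the ligand Jag1 gave -0.90 ± 0.35, and the mural receptor Notch3 gave -0.50 ± 0.33 (limma adjusted p = 0.415, 0.451 and 0.649). Inhibitors of angiogenesis had a median of -0.24 over 10 genes, 6 of them below 0. The median was -0.51 without hyperthyroid replicate 5 (9 genes kept), -0.083 without control replicate 11 and 0.10 without hyperthyroid replicate 2. Timp3, which inhibits matrix proteases and the binding of VEGF to Kdr, gave -0.44 ± 0.18, with no overlap between groups. The feedback inhibitor Spry4 gave -0.66 ± 0.32 and Col18a1, the source of endostatin, -1.06 ± 0.64 (limma adjusted p = 0.464, 0.532 and 0.616).

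Genes of the hypoxia response, which includes the factors that induce Vegfa when oxygen is low, had 8 of 12 above 0 and a median of 0.14. An unadjusted p under 0.05 was reached by 3 higher and 2 lower genes. Bnip3, a mitochondrial receptor for autophagy, gave 4803 to 5993 on hyperthyroid and 3851 to 4755 on control arrays, without overlap (log2 fold change 0.34 ± 0.12, limma adjusted p = 0.417). Ankrd37 gave 0.72 ± 0.27 and Egln3, an oxygen-sensing prolyl hydroxylase, gave -0.48 ± 0.19 (limma adjusted p = 0.443 and 0.459), so these hypoxia-inducible genes did not share a direction. With arrays centred or scaled to the hybridization controls the list's median lay 0.14 above that of all genes, a distance that centring cannot change. Leaving out 1 array at a time gave 0.065 (control replicate 8) to 0.28 (hyperthyroid replicate 5), and without the array of highest Xist in each group the median was 0.077, with 6 genes above and 6 below 0.

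**Figure D5:**
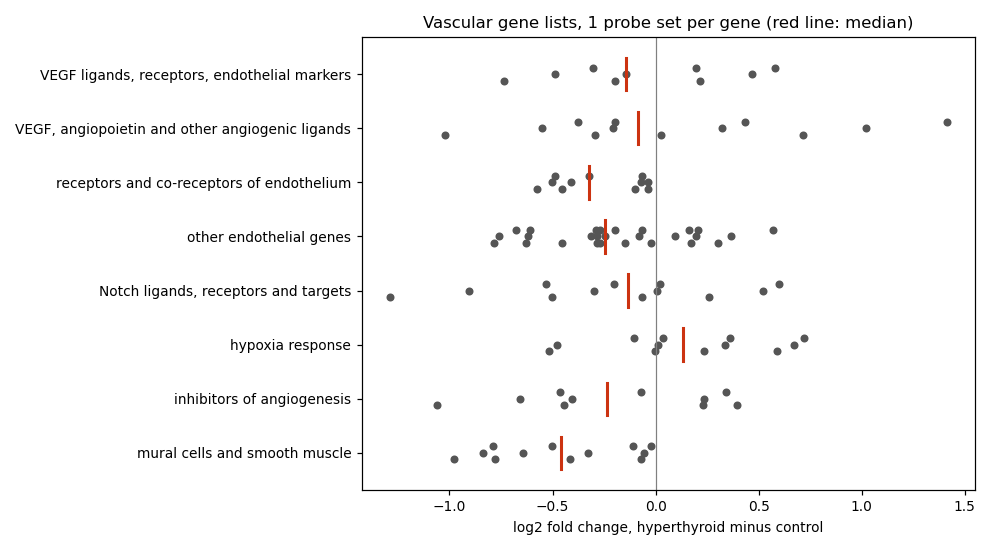
Log2 fold change, hyperthyroid minus control, of every measured gene in 8 vascular gene lists (points, 1 probe set per gene) with the median of each list (red line). All 11 receptors and all 12 mural genes lie below 0 under the deposited scaling, and none of the genes shown passed the adjusted threshold.

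Markers of other cells in the muscle were examined beside these genes, and none was called. All 12 mural and smooth muscle genes were below 0. Their median was -0.46, and their summed intensity was 8125 to 11010 on hyperthyroid and 9841 to 11320 on control arrays, of which Des, also a gene of muscle fibres, made 5110 to 8044 and 5422 to 8238. Rgs5 of pericytes gave -0.78 ± 0.22, Tagln of smooth muscle -0.79 ± 0.26 and the pericyte channel subunit Kcnj8 -0.64 ± 0.31 (limma adjusted p = 0.2996, 0.360 and 0.532). With arrays centred, 8 of 12 were below 0. The list's median lay -0.46 from that of all genes, a distance that centring cannot change. Without control replicates 7 and 11 together, the highest arrays for these genes, the mural median was -0.24, with 10 of 12 below 0. Without hyperthyroid replicate 5 and control replicate 9 it was -0.515, with 10 of 12 below 0. Without the array of highest Xist in each group it was -0.27, with 9 of 12 below 0. Slow-fibre genes, of a fibre type known to be rich in capillaries, summed to 574 to 8226 on hyperthyroid and 3647 to 42810 on control arrays and were highest on control replicates 7 and 11. Some of their values lay under the level of the filter. Tnnt1 gave 3.31, 4.76 and 2.91 on hyperthyroid replicates 3, 5 and 2, and 7.16 on control replicate 8. Tnnc1 gave 16.5 on hyperthyroid replicate 3, Myh7 5.96 and 5.83 on hyperthyroid replicates 3 and 5, and Myl2 1.34 on hyperthyroid replicate 5. All 8 slow-fibre genes were below 0, 7 with an unadjusted p under 0.05, and their median of -2.997 lay farther from 0 than that of any other list. It was -1.26 without control replicates 7 and 11, with 6 of the 7 genes kept then below 0, and their smallest adjusted p in limma over all arrays was 0.298. Vegfa 1373807_at was likewise highest on control replicate 7 but not on control replicate 11. Genes of skeletal muscle fibres summed to 175200 to 224600 and 228600 to 258400, with all 6 below 0, a median of -0.40 and 4 with an unadjusted p under 0.05 (2 of 6 below 0 after quantile normalization).

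Fibroblast genes summed to 4415 to 32130 on hyperthyroid and 2764 to 21050 on control arrays. Their mean log2 deviation was highest on hyperthyroid replicate 5, at 1.73, where most of the 12 probe sets were low. It was 1.43 on control replicate 11, where the 12 averaged 0.245, and -0.002 on control replicate 9, where the 12 averaged -0.298. Macrophage and leukocyte genes (6 measured) summed to 252 to 675 and 203 to 985, adipocyte genes (4) to 1272 to 2634 and 1209 to 2506, mostly Fabp4, and erythroid genes (3) to 4327 to 7900 and 4199 to 12890. Lymphatic genes (5) summed to 180 to 637 and 168 to 693. Of the platelet genes only Pf4 passed the filter, at 59.6 to 212 and 69.0 to 196. Each sum is weighted to its strongest probe sets. The median log2 fold change was 0.15 over the fibroblast genes, -0.10 over the macrophage genes, 0.81 over the adipocyte genes (Cfd 1.48, Adipoq 1.09, Plin1 0.53 and Fabp4 -0.16), -0.30 over the erythroid genes, -0.14 over the lymphatic genes and 0.11 for Pf4. Without control replicate 11 the macrophage median was 0.93, over the 4 genes then kept, so it is not a median of the same genes. The lymphatic median was 0.40 without that array, and without hyperthyroid replicate 5 the fibroblast median was -0.52. The part of such cells in the values of the endothelial genes was not tested.

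Each array had the same mean of 150 after the highest and lowest 2% of values were left out, and medians ran from 38.8 to 42.0 on hyperthyroid and from 43.5 to 54.9 on control arrays. Control replicate 11 resembled the other arrays least, with a median correlation of 0.8655 against 0.886 to 0.909 for the others. The count of 6 called probe sets became 0 without hyperthyroid replicate 3 or without control replicate 7, and was 1, 2 and 3 without hyperthyroid replicate 1, control replicate 8 and hyperthyroid replicate 2. With 4 rats in each group, precision was limited by the number of arrays and by the spread between them.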

How the data were processed

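Total RNA of 8 muscles was labelled with biotin from oligo(dT)-primed cDNA, per the labels' protocols. The authors deposited linear intensities. GCOS is the tool that the submitters' processing notes name, and the sources used here give neither its settings nor detection calls. Equal trimmed means on all arrays show scaling to 1 target, which removes differences in total RNA. Of 31099 probe sets, 57 controls were left out. Of the rest, 20826 had 1 symbol, 436 several and 9780 none. All 13 probe sets described matched a RefSeq gene of the same symbol by Entrez identifier.

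Values were analysed as log2(intensity + 3.41), the 10th percentile of all values, so fold changes of dim probe sets are understated. Probe sets whose mean log2 value lay above the 40th percentile (4.69) were kept. limma 3.58.1 in R 4.3.3 (lmFit, eBayes with trend, two-sided, Benjamini-Hochberg over 18625 probe sets) was tested on simulated data. Replicates are separate rats. Likeness to Vegfa and Pecam1 named the 4 genes of highest correlation, and each list its 3 genes of smallest p. The genes, lists and tests were chosen with earlier results of these data known. Alternatives covered normalization, pseudocount, filter, variance model, gene summary and arrays left out.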

Additional observations from a re-analysis of the deposited data

Results flagged for a closer look

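In 66 groups of 4 arrays examined, for the 12 probe sets and the named genes of the lists, 2 held an array that stood far from the others, where chance flags about 1 in 20. Plvap was 56.2 on hyperthyroid replicate 2 and 131 to 138 on the other hyperthyroid arrays. Timp3 was 427 on the same array and 669 to 734 on the others. Vwf was also lowest on this array, at 27.3, with a gap too small to be marked by the same measure.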

How the results depend on the processing

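No probe set of the 12 was called under any of 21 alternatives (smallest adjusted p 0.174). Changing only the filter, the variance trend, robust variance or which probe set stood for a gene cannot alter a probe set's log2 fold change. Averaging cannot alter it for a gene with no other kept probe set. Counting these values, which could not reverse, 240 of 248 kept their direction, so this count overstates how stable the signs were. Of the other 8, 5 came from scalings that lift all probe sets alike, under whose median they stayed: with arrays centred (median of all 0.212) Tie1 and Tek gave 0.023 and 0.078, and with 18 hybridization controls (0.303) Vegfb, Tie1 and Tek gave 0.015, 0.114 and 0.175. Without the array of highest Xist in each group Tie1 gave 0.099. With probe sets of a gene averaged, Vegfa gave 0.029 against -0.49 for 1373807_at, and Flt1 gave -0.30 against 0.47 for 1377113_at, since averaged probe sets differ in sign. The median of the 12 ran from -0.21 to 0.14, and its value of 0.14 came from the hybridization controls.

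The count of called probe sets, 6, was 19 with arrays centred, 118 with hybridization controls, 16 with no filter, 0 with no variance trend, 22 with robust variance, 10 with array weights, 1 with probe sets averaged and 2 without the arrays of highest Xist. Leaving out 1 array gave 0 to 5. All 19 and all 118 were higher in hyperthyroid rats, while the 22 were 12 higher and 10 lower. The cause of these changes in count was not tested. The Vegfa contrast between probe sets ran from 0.89 to 1.40 and that of Flt1 1377113_at minus 1369087_at from 1.16 to 1.90, with adjusted p from 0.114 to 0.4. The other Flt1 contrasts ran from 0.36 to 1.15 (adjusted p 0.114 to 0.4) and from 0.23 to 0.84 (0.257 to 0.686). Leaving out the array of highest Xist in each group leaves fewer assignments and a larger smallest possible p in the permutation test. Adjusted p values from that alternative therefore cannot be set against the others. No paired analysis was possible because the groups share no replicate number. The alternatives for the lists and the contrasts between probe sets were chosen after seeing the data. Signal near the filter is a limit for Flt1 1369087_at, whose mean level was the lowest of the 12 probe sets. It was left out with the filter at the 60th percentile.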
